A study of Mus musculus with 14 samples.

Results

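The let-7 family was measured in mouse plasma by 17 qPCR assays out of the 389 miRNAs named in the screen. Members were the wells whose miRNA name, after the species prefix, began with let-7 or was miR-98. Of the 17 assays, 8 read a guide arm, the strand of the hairpin that carries the family's shared start, and 9 read a star arm, the strand opposite to it. One star assay carried a rat name, rno-let-7f-1*. No named well was a miR-98 assay, so miR-98 was not analysed here.

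Plasma of 8 mice with osteosarcoma (OS) was compared with plasma of 6 control mice, 1 sample per mouse. The OS mice were a genetically engineered mouse model (GEMM) in which a collagen α1(I) promoter drives the Cre recombinase in osteoblasts and 1 or both Trp53 alleles are flanked by LoxP sites. The control mice were age-matched wild-type littermates with intact Trp53, which by the methods could carry Cre as well. Which OS mice had lost 1 allele or both, and the age of each mouse, were not given in the sources used here, and the methods describe a screen of more OS mice than the 8 analysed here. Blood was taken by cardiac puncture into EDTA, from OS mice once they had a tumor.

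Let-7 was among the earliest miRNAs described, as a regulator of developmental timing in Caenorhabditis elegans. In mammals its many copies repress growth-promoting genes such as the RAS genes, HMGA2 and MYC, and the mature forms accumulate as cells differentiate while the RNA-binding protein LIN28 blocks their processing in stem cells and in many tumors. A miRNA finds its targets mainly through its seed, bases 2 to 8 of the mature strand, so members that share a seed share most predicted targets. Blood cells, among them red blood cells and platelets, contain several let-7 miRNAs and can release them into plasma.

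The guide arms are shown in full because the group difference varied between sequences that are nearly the same. They are the mature sequences of RefSeq for GRCm38.p6, written 5′ to 3′, with the seed in capitals.
mmu-let-7a: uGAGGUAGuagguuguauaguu
mmu-let-7b: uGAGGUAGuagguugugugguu
mmu-let-7c: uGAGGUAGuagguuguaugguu
mmu-let-7d: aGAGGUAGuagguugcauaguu
mmu-let-7e: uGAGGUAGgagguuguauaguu
mmu-let-7f: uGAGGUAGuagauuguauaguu
mmu-let-7g: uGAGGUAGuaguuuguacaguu
mmu-let-7i: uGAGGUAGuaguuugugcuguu
All 8 guide arms had the seed GAGGUAG. Counted from 1 at the 5′ end and read from let-7a to the other member, let-7f differs by G12A, let-7c by A19G, let-7e by U9G, let-7b by A17G and A19G, and let-7d by U1A and U16C. The pairs of guide arms differed at 1 to 6 of 22 bases, and 4 of the 28 pairs at a single base. How far an assay of 1 member also reads its near neighbours was not tested. The seed is also that of mmu-miR-98 (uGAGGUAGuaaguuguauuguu) and, on the panels, of mmu-miR-1961 (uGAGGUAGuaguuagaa), which is not named as a let-7 miRNA.

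The star arms have other seeds and so other predicted targets. Those of the hairpins that carry the strongest guide-arm differences are shown in the same way.
mmu-let-7a-1*: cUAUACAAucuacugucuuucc
mmu-let-7d*: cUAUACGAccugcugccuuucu
mmu-let-7f-1*: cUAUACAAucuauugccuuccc
mmu-let-7f-2*: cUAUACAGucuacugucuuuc
The let-7a-1* sequence is also that of the 3′ arm of the Mirlet7c-2 hairpin, so its assay could read either. RefSeq held a sequence for 16 of the 17 assays.

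By RefSeq coordinates on GRCm38.p6, the hairpins of let-7a, let-7f and let-7d lie side by side on chromosome 13. These are Mirlet7a-1 (chr13:48538179-48538272), Mirlet7f-1 (chr13:48537829-48537917) and Mirlet7d (chr13:48536012-48536114), all on the minus strand within 2261 bases. A further copy of let-7a, Mirlet7a-2, lies at chr9:41536716-41536811 within the span of the lncRNA Mir100hg, and the other copy of let-7f, Mirlet7f-2 (chrX:151912346-151912428), lies beside Mir98 within the span of Huwe1. Mirlet7b (chr15:85707319-85707403) lies beside Mirlet7c-2 within the span of the lncRNA Lncppara. Mirlet7i (chr10:122985640-122985724) is spanned by no other annotated gene. A plasma level of a mature guide arm cannot be assigned to 1 of its copies.

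Plasma let-7f and let-7d were lower in OS mice than in control mice, let-7b was at nearly the same level, and no star arm passed the test in either direction. A quantification cycle (Cq) counts PCR cycles until detection, so that a low Cq stands for much RNA. The level used throughout is the mean Cq of a mouse over all 388 retained miRNAs minus the Cq of the assay, on a log2 scale on which higher stands for more RNA. Let-7f fell by 2.96 (SE 0.52) and let-7d by 1.94 (SE 0.55), with adjusted p-values of 0.0033 and 0.0295 by limma over all 388 miRNAs. Let-7 assays passing the test thus came to 2 of 17 lower in OS and 0 of 17 higher, where 6.44% of all miRNAs were called lower and 6.19% higher. At an unadjusted p under 0.05, 4 of the 17 (let-7a, let-7d, let-7f and let-7i) were lower and 0 higher, beside 14.7% and 16% of all miRNAs. The methods' test, the unpaired two-tailed test of the paper, was used throughout at an adjusted p under 0.05. The paper's own rule, a fold-change limit with a stricter limit on the adjusted p, was not applied. By the methods' test let-7f had an adjusted p of 0.0227, which would not pass that stricter limit. At 0.05 the methods' test called 1 of the 17 lower and 0 higher, beside 3.61% and 2.58%. The share rests on 2 members and was not tested against that background. The 8 guide arms had a median difference of -1.05 and 7 of them lay below 0, the 9 star arms had a median of -0.07 with 5 below 0, and all 388 miRNAs had a median of -0.003 with 195 below 0. The guide arms were measured on panel I and the star arms, but for let-7a-1*, on panel II. Arm and panel can therefore not be told apart in this contrast.

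**Figure D1:**
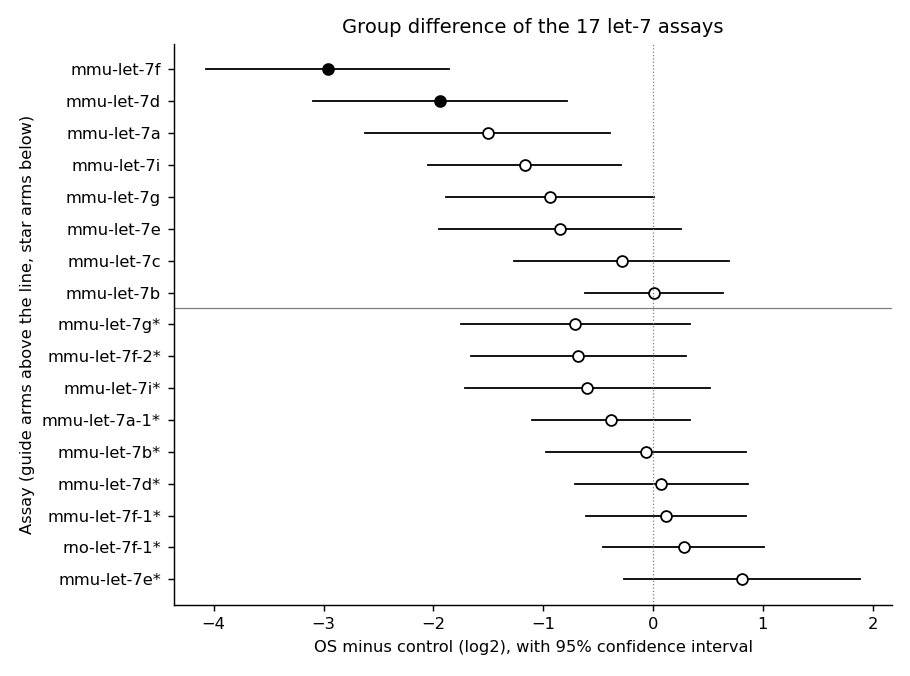
Difference of each let-7 assay between 8 OS and 6 control mice, OS minus control on the log2 scale, as points with 95% confidence intervals from limma. Filled points mark the assays past an adjusted p of 0.05, and the intervals of let-7f and let-7d lie farthest below 0 while that of let-7b is centred on it.

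By mean Cq over all mice, the guide arms spanned from 25.7 for let-7g and 26.0 for let-7b, the most abundant, through 28.1 for let-7c, 28.5 for let-7i, 30.5 for let-7d, 32.3 for let-7a and 33.5 for let-7e, to 34.2 for let-7f, each over 14 mice except let-7f, over 12. A Cq depends on the efficiency of its assay, so this order compares signals of assays and not molecules. Let-7b was above let-7c in 14 of 14 mice, let-7i above let-7d in 14 of 14, and let-7d above let-7a in 14 of 14. The neighbours let-7g and let-7b did not keep their order, with let-7g ahead in 4 of 8 OS mice and in 6 of 6 control mice. Let-7c was ahead of let-7i in 7 of 8 OS mice and in 2 of 6 control mice. Let-7e was ahead of let-7f in 7 of 7 OS mice and in 3 of 5 control mice. In those 5 control mice their mean Cq was level, at 32.1 for both. Among the 388 miRNAs, let-7g ranked 20, let-7b 23 and let-7f 253 by mean Cq.

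Detection was nearly complete. A Cq of 37 or less, the background limit of the methods, was found in every mouse for 15 of the 17 assays. Let-7f was above the limit in OS replicate 19, at Cq 37.49, and in control replicate 1, at Cq 37.30. Let-7g* was above it in OS replicate 19, at Cq 37.67. Star arms were for the most part late signals, with mean Cq between 31.4 and 34.5 for 8 of them, while let-7d* stood apart at 27.7 and was ahead of let-7a-1*, the next star arm, in 14 of 14 mice. The rat and the mouse assay of let-7f-1* differed by a Cq of -0.87 ± 0.47 (SD, n = 14), rat minus mouse.

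Let-7f, the guide arm with the latest mean Cq in OS mice, had the largest group difference of the family. Its normalized level was -2.45, -3.75, -4.44, -2.87, -4.24, -4.34 and -3.31 in OS replicates 10, 11, 12, 15, 16, 17 and 18, against -2.46, 0.54, -0.57, 0.10 and -0.95 in control replicates 2, 3, 4, 13 and 14. OS replicate 10 and control replicate 2 were level, and the other 6 OS mice lay below all 5 control mice. The mean was -3.63 ± 0.78 (SD, n = 7) in OS mice and -0.67 ± 1.16 (SD, n = 5) in control mice, a level 7.79-fold lower (p = 0.00253, exact permutation test over 792 splits, two-sided). The mice above the limit had the latest Cq of their groups. Under a Cq limit of 40 they were kept, and the mean Cq of every mouse was computed anew, which shifted all levels slightly. On that scale let-7f had -2.35, -3.67, -4.33, -2.75, -4.20, -4.28, -3.21 and -4.35 in OS replicates 10, 11, 12, 15, 16, 17, 18 and 19, against -4.22, -2.43, 0.62, -0.45, 0.10 and -0.93 in control replicates 1, 2, 3, 4, 13 and 14. Control replicate 1 was lower than 5 of the 8 OS mice, and the difference was -2.42 (SE 0.64), a 5.37-fold lower level with an adjusted p of 0.0231 by limma. The adjusted p of let-7f stayed under 0.05 in all 14 alternatives in which it could be tested and with any single mouse left out.

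Let-7d, whose hairpin lies next to Mirlet7f-1, was lower by 3.84-fold. It had normalized levels of 0.84, 1.12, 0.83, 1.85, 0.63, 0.19, 0.70 and -1.02 in OS replicates 10, 11, 12, 15, 16, 17, 18 and 19. In control replicates 1, 2, 3, 4, 13 and 14 it had 0.04, 2.02, 3.90, 2.86, 3.87 and 2.80. Control replicate 1 lay within the OS values, and the other 5 control mice lay above all 8 OS mice. The means were 0.64 ± 0.82 (SD, n = 8) in OS mice and 2.58 ± 1.43 (SD, n = 6) in control mice (p = 0.00899, exact permutation test over 3003 splits, two-sided). This call rested on single mice, since the adjusted p by limma was 0.0508 without OS replicate 19, 0.0764 without control replicate 3, 0.0552 without control replicate 4, 0.0798 without control replicate 13 and 0.0669 without control replicate 14, with differences from -1.90 to -1.68. It was also lost on unscaled Cq (difference -2.38, adjusted p 0.0503), with each panel centred on its own mean (-1.70, adjusted p 0.0557) and by the methods' test (adjusted p 0.0740).

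Let-7a and let-7i had differences that did not pass the threshold. Let-7a had levels of -1.72, -0.75, -1.18, 0.25, -1.11, -1.03, -1.01 and -1.92 in OS replicates 10, 11, 12, 15, 16, 17, 18 and 19. In control replicates 1, 2, 3, 4, 13 and 14 it had -1.97, -0.48, 1.24, 0.57, 2.06 and 1.26. Control replicates 3, 4, 13 and 14 were above all OS mice, and control replicate 1 was below them all. Its difference was -1.51 (SE 0.53, adjusted p 0.0718 by limma), and it was called at -1.99 without control replicate 1 (adjusted p 0.0146) and at -1.69 without OS replicate 15 (adjusted p 0.0344).

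Let-7i, encoded alone on chromosome 10, had levels of 2.69, 2.78, 1.63, 3.71, 2.95, 3.69, 3.06 and 2.79 in OS replicates 10, 11, 12, 15, 16, 17, 18 and 19. In control replicates 1, 2, 3, 4, 13 and 14 it had 3.01, 3.67, 5.15, 3.30, 5.08 and 4.27. Control replicates 3, 13 and 14 lay above all OS mice, and the other control mice lay among them. The difference was -1.17 (SE 0.42, adjusted p 0.0748 by limma), and let-7i was called without OS replicate 15 (-1.28, adjusted p 0.0445), OS replicate 17 (-1.27, adjusted p 0.0485) or control replicate 1 (-1.38, adjusted p 0.0389).

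Let-7b, from chromosome 15, was the steady member. Its levels were 6.62, 5.90, 6.01, 6.06, 6.19, 5.68, 5.69 and 5.58 in OS replicates 10, 11, 12, 15, 16, 17, 18 and 19. They were 5.08, 5.98, 6.08, 6.17, 6.31 and 6.11 in control replicates 1, 2, 3, 4, 13 and 14. The groups overlapped, with the highest level in OS replicate 10 and the lowest in control replicate 1. The means were 5.97 ± 0.34 (SD, n = 8) in OS mice and 5.96 ± 0.44 (SD, n = 6) in control mice. The difference of 0.01 had a 95% confidence interval from -0.62 to 0.64, so shifts up to these bounds in either direction remain possible.

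The other guide arms were let-7c at -0.29 (95% confidence interval -1.27 to 0.70), let-7e at -0.85 (-1.95 to 0.25) and let-7g at -0.94 (-1.89 to 0.01), none past the threshold. No guide or star arm separated the groups fully, since 0 of 17 assays had all OS mice on 1 side of all control mice, against 1.03% of the 388 miRNAs with all OS mice below and 1.8% with all above. The guide arms with 7 and 10 G or C bases, the fewest and the most, were let-7f and let-7b, which had the largest and the smallest difference, while the 6 members with 8 or 9 such bases ranged from -1.94 to -0.29 in no order of base content. All 8 points come from the same plasma samples.

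**Figure D2:**
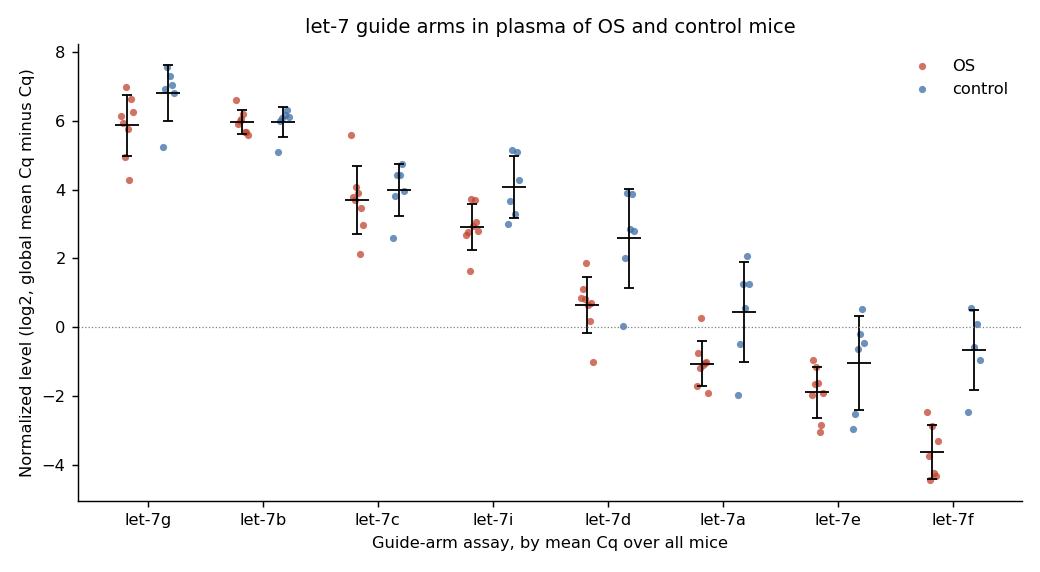
Normalized level of the 8 let-7 guide arms on the log2 scale, 1 point per mouse, with OS mice left of control mice and black bars for the mean and SD. OS mice of let-7f lie between -4.44 and -2.45 with 1 mouse of each group missing above Cq 37, and the points of let-7b lie between 5.08 and 6.62 in both groups.

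The levels were also set against let-7b in the same mouse. Let-7b was chosen for this with its steadiness in these mice known, so the values restate the differences above on another scale and are not independent support for them. On this scale let-7f had ratios between -10.45 and -8.93 in 7 OS mice and between -8.44 and -5.54 in 5 control mice, without overlap. It was the single let-7 assay of 16 without overlap, where 2.07% of all miRNAs had every OS mouse below and 3.1% every OS mouse above. Kept in, the mice above Cq 37 lay at -10.21 in OS replicate 19 and at -9.54 in control replicate 1, and the groups then overlapped. Relative to let-7b, let-7f was lower by a log2 difference of -2.85 (SE 0.50, adjusted p 0.00215 by limma), let-7d by -1.95 (SE 0.47, adjusted p 0.0132) and let-7a by -1.52 (SE 0.48, adjusted p 0.0448). Those 3 of 16 assays were called lower and 0 higher, beside 5.17% and 6.46% of all miRNAs. The ratio of let-7i to let-7b was not called (-1.18, SE 0.43, adjusted p 0.0824), nor was that of let-7c (-0.30, SE 0.37) or let-7g (-0.95, SE 0.42, adjusted p 0.157). The members called on this scale have hairpins in the chromosome 13 cluster, though let-7a and let-7f have other copies. Let-7a was not called on the scale used above (adjusted p 0.0718 by limma). The star arms of those hairpins, let-7a-1*, let-7d* and let-7f-1*, differed by -0.39, 0.07 and 0.11 relative to let-7b, none of them called. Whether the shared locus matters was not tested.

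Both arms of a hairpin are cut from the same precursor, so guide and star arm were also compared within mice, as the Cq of the star arm minus that of the guide arm. Let-7f and let-7a have more than 1 hairpin, so their ratios do not compare the arms of a single precursor. The pairs with let-7f-1* and let-7f-2* also share the same let-7f values. The fit covered 84 pairs of arms of all named miRNAs, the let-7 pairs among them, and was added after the data were seen. For names ending in -5p and -3p the 5p arm was put in the guide's place, whichever arm is the more abundant. For those pairs, such as miR-142-5p over miR-142-3p (2.38, called higher), lower and higher need not refer to guide over star. Of the 8 let-7 pairs, 2 had a lower guide-to-star ratio in OS mice, both with let-7f as the guide arm, and 0 a higher one, where 8.33% of the 84 pairs were called lower and 2.38% higher.

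Let-7f against let-7f-1* was -2.12, -3.30, -3.11, -2.14, -2.03, -3.64 and -2.36 in OS replicates 10, 11, 12, 15, 16, 17 and 18. In control replicates 2, 3, 4, 13 and 14 it was -2.04, 2.06, 1.01, 1.30 and 0.32. The star arm gave the earlier signal in all 7 OS mice and in control replicate 2, and the guide arm in the other 4 control mice. The difference was -3.20 (SE 0.59, adjusted p 0.00149 by limma), and it was called in all 17 fits of these ratios, with values from -3.84 to -2.58. OS replicate 19 and control replicate 1 had no let-7f value under the limit, so leaving either out kept the difference at -3.20. They entered only at a Cq limit of 40, where the difference was -2.58 (adjusted p 0.0415 by limma). Control replicate 1, with its Cq above 37 kept in, lay at -3.61, among the OS mice.

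Let-7f against let-7f-2*, the star arm of the X chromosome copy, differed by -2.60 (SE 0.71, adjusted p 0.0292 by limma). This call was held in 11 of 17 fits and lost at a Cq limit of 40 (-1.78, adjusted p 0.169) and without OS replicate 11, OS replicate 12, control replicate 3, control replicate 4 or control replicate 13 (adjusted p from 0.0561 to 0.0768). Leaving out OS replicate 19 or control replicate 1 again removed no let-7f value and kept the difference at -2.60. Let-7d against let-7d* was at -3.63 ± 1.04 (SD, n = 8) in OS mice and -1.61 ± 2.09 (SD, n = 6) in control mice, a difference of -2.02 that was not called (adjusted p 0.0637 by limma). Let-7e against let-7e* differed by -1.66 (adjusted p 0.0524), let-7a against let-7a-1* by -1.13 (adjusted p 0.192), and let-7b, let-7g and let-7i against their star arms by 0.08, -0.29 and -0.57. Let-7b gave an earlier signal than let-7b* by 5.64 to 7.80 in OS mice and by 4.96 to 7.90 in control mice.

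**Figure D3:**
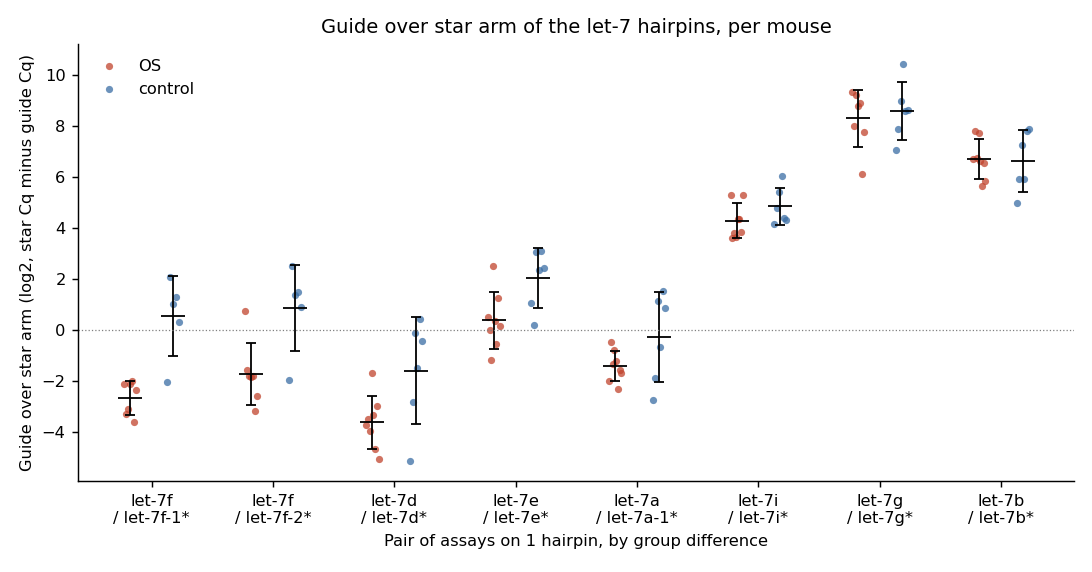
Guide arm over star arm of the 8 let-7 pairs on the log2 scale (star Cq minus guide Cq), 1 point per mouse, with OS mice left of control mice and black bars for the mean and SD. The OS mice of let-7f over let-7f-1* lie between -3.64 and -2.03, while 4 of 5 control mice lie above 0.

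The star arms themselves ranged from -0.71 for let-7g* to 0.81 for let-7e*, none of them past the threshold (adjusted p from 0.284 to 0.949 by limma). Let-7d* and let-7f-1*, from the hairpins of the members that fell, had differences of 0.08 (95% confidence interval -0.71 to 0.86) and 0.12 (-0.61 to 0.85). Every guide arm was measured on panel I and every star arm but let-7a-1* on panel II, so arm and panel cannot be told apart in 7 of the 8 pairs. Wells on both panels were held by 3 miRNAs, and panel II minus panel I gave a Cq of -0.14 in OS mice and -0.06 in control mice for miR-103. It gave -0.57 in OS mice and -0.53 in control mice for miR-191, and -0.23 in OS mice and -0.21 in control mice for miR-423-3p. The mean over all retained wells of panel II minus that of panel I was 1.00 ± 0.31 (SD, n = 8) in OS mice and 1.68 ± 0.19 (SD, n = 6) in control mice. With each panel centred on its own mean, let-7g*, let-7f-2* and let-7i* were at -1.17, -1.12 and -1.04, none called by limma. Let-7e* alone among the star arms stayed above 0, at 0.37. On that scale the guide arms let-7f and let-7d were at -2.71 and -1.70.

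Stability was ranked among the 276 miRNAs measured in every mouse, which include 15 of the let-7 assays but not let-7f or let-7g*. The geNorm M of a miRNA is the mean, over all other miRNAs, of the SD across mice of their Cq difference, and a low value marks a steady miRNA. Let-7b had an M of 1.03 and ranked 4 of 276, and by NormFinder, which adds the difference between groups to the variation within them, it ranked 1 with a value of 0.192. With each mouse left out in turn its M stayed between 0.959 and 1.04. Let-7d was the least stable let-7 assay in this ranking, with an M of 1.69 and rank 239, followed by let-7a (1.53, rank 205) and let-7e (1.44, rank 184), against a median of 1.30 over the 276. The star arms let-7a-1*, let-7f-1* and rno-let-7f-1* ranked 37, 44 and 45. Within groups the SD of the level was 0.38 for let-7b, 0.77 for let-7i, 1.06 for let-7a and 1.12 for let-7d, so the order was not set by the group difference alone. On unscaled Cq the within-group SD of let-7b was 0.92, that of let-7d* 0.68 and that of let-7d 1.58.

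**Figure D4:**
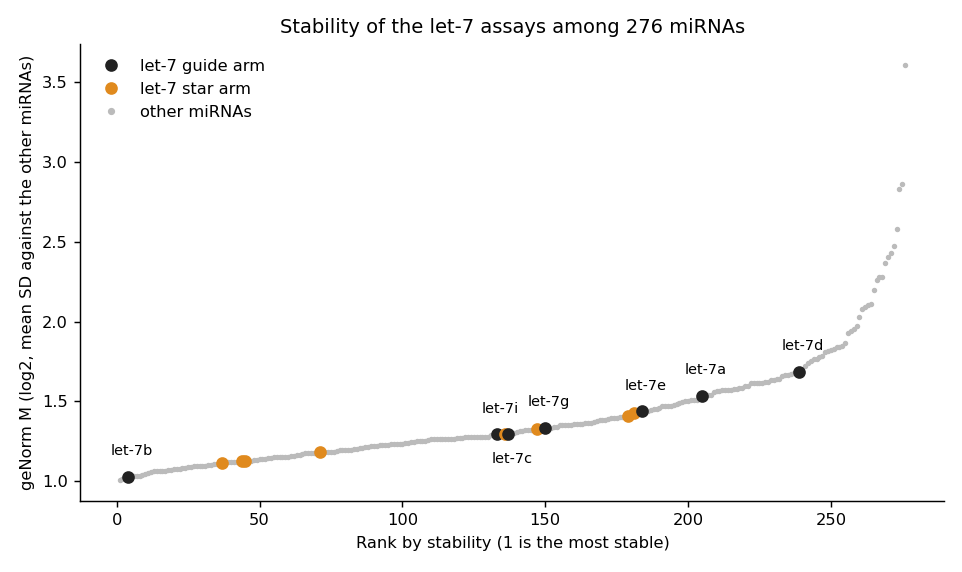
geNorm M of the 276 miRNAs measured in every mouse (log2 scale), ordered from the most stable, with the 7 let-7 guide arms and 8 star arms in this ranking marked. Let-7b stands at rank 4 with an M of 1.03 and let-7d at rank 239 with 1.69.

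Outside the family by name, the miRNAs that kept the most constant distance from let-7b were miR-345-5p, its rat assay rno-miR-345-5p and miR-652, with an SD of the Cq difference of 0.32, 0.33 and 0.35 over 14 mice. These are closer than any let-7 assay was to let-7b, the nearest being let-7c with an SD of 0.58. For let-7d the nearest were miR-374 (SD 0.55), rno-miR-352 (0.60) and miR-103 (0.72), beside let-7a within the family (0.50). The sequences used here held none for rno-miR-352, so whether its assay also reads a let-7 miRNA was not tested. For let-7f, over 12 mice, they were miR-374 (0.79), rno-miR-352 (0.87) and miR-26b (0.95), beside let-7d (0.68). Of these, miR-374, rno-miR-352 and miR-103 were also lower in OS mice, with differences of -2.06, -1.41 and -1.28 and adjusted p-values of 0.0130, 0.0443 and 0.0295 by limma. The nearest miRNAs were picked over OS and control mice together. A group difference like that of let-7d or let-7f was thus favoured by the choice and is not separate support.

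The miR-99, miR-100 and miR-125 miRNAs are encoded in clusters with let-7a-2, let-7c-1 and let-7e, and 9 assays of them were measured. None of the 9 passed the test in either direction (limma), where 6.44% of all miRNAs were called lower and 6.19% higher. At an unadjusted p under 0.05, 1 of the 9 was higher and 0 lower, beside 16% and 14.7% of all miRNAs. The methods' test called 0 of the 9, beside 3.61% of all miRNAs lower and 2.58% higher. The median difference of the 9 partners was 0.44, against -1.05 for the let-7 guide arms and -0.003 for all miRNAs. The partner closest to the threshold was miR-125a-3p, cut from a hairpin near let-7e, at 1.31 (SE 0.43, adjusted p 0.0600) in 7 OS and 4 control mice. miR-1961, which shares the let-7 seed, was at 0.23 ± 0.85 (SD, n = 8) in OS mice and 0.93 ± 0.76 (SD, n = 6) in control mice, a difference of -0.70 (SE 0.43, adjusted p 0.274 by limma).

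Blood cell RNA also reaches plasma, and the values of its markers are given here beside the let-7 differences. The Cq of miR-23a minus that of miR-451, a marker that rises with red blood cell RNA, was 4.19 ± 1.94 (SD, n = 8) in OS mice and 5.77 ± 1.43 (SD, n = 6) in control mice (p = 0.117, exact permutation test, two-sided). It was 1.05, 2.97, 2.59, 6.36, 5.03, 4.26, 6.85 and 4.42 in OS replicates 10, 11, 12, 15, 16, 17, 18 and 19, and 4.38, 4.99, 7.03, 4.11, 7.21 and 6.88 in control replicates 1, 2, 3, 4, 13 and 14. With this marker as a covariate, let-7f kept its call at -2.78 (adjusted p 0.0265 by limma) and let-7d did not (-1.59, adjusted p 0.173), while 6 of the 388 miRNAs were called lower and 11 higher. Without control replicates 3 and 13, the mice over 7, let-7d was at -1.30 (adjusted p 0.189). Let-7a was at -0.96 with the covariate (adjusted p 0.350).

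Of 5 red blood cell miRNAs, 1 (miR-144) was lower in OS mice and 0 higher by limma, beside 6.44% and 6.19% of all miRNAs. Their summed level ranged from 9.67 to 12.98 in OS mice and from 11.98 to 14.02 in control mice on the log2 scale. Their median difference was -1.02, with miR-144 at -2.38, miR-451 at -1.43, miR-15b at -1.02, miR-16 at -0.77 and miR-486 at 0.05. Of 6 white blood cell miRNAs, 1 (miR-142-3p) was lower and 0 higher, beside the same shares of all miRNAs. The summed level of the 6 ranged from 6.61 to 7.78 in OS mice and from 7.86 to 9.40 in control mice. Their median difference was -0.33, with miR-142-3p at -3.57, miR-142-5p at -1.18 and miR-223 at -0.49, while miR-150, miR-155 and miR-146a were at 0.02, -0.16 and 0.08. The 2 platelet and vessel miRNAs, miR-126-3p and miR-126-5p, were at -0.63 and -0.73 and not called. At an unadjusted p under 0.05 by limma, 3 of the 5 red blood cell, 2 of the 6 white blood cell and both platelet and vessel miRNAs were lower. None was higher, beside 14.7% of all miRNAs lower and 16% higher. The methods' test called 1, 1 and 0 of these lists, beside 3.61% of all miRNAs lower and 2.58% higher. All of these markers were detected. In plasma, less of a miRNA released per cell and fewer cells releasing it cannot be told apart.

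**Figure D5:**
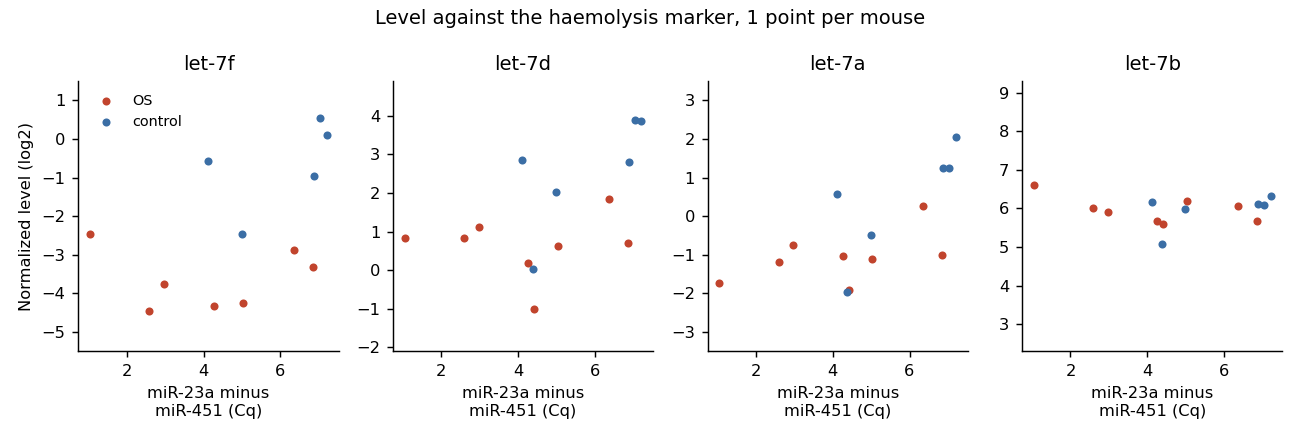
Normalized level (log2) of let-7f, let-7d, let-7a and let-7b against the haemolysis marker (Cq of miR-23a minus Cq of miR-451), 1 point per mouse, with the same span on each vertical axis. The marker runs from 1.05 to 6.85 in OS mice and from 4.11 to 7.21 in control mice. Let-7d lies between -1.02 and 1.85 in OS mice and between 0.04 and 3.90 in control mice, and let-7b between 5.08 and 6.62.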

How the data were processed

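Plasma samples of 8 OS and 6 control mice were grouped by their labels. The authors deposited Cq values, which lie on a log2 scale with lower values for more RNA, for 768 wells per mouse, of which 13.9% to 24.7% were blank. By the methods they were measured on Exiqon mouse panels I and II. Of the deposited fold-change table, which holds the authors' own comparison and p-values, only the well names were used, and these named 392 wells with 389 miRNAs. Whether the Cq values precede the calibration between plates was not stated.

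Values over Cq 37 were treated as missing, the miRNA lacking a value in at least 75% of mice was dropped, and the mean Cq of the 388 retained served to scale each mouse (missing values at the group mean, or else Cq 38, for this mean only). Groups were compared with limma 3.58.1 (lmFit and eBayes, two-sided) in R 4.3.3 with Benjamini-Hochberg adjustment over 388 miRNAs at a threshold of 0.05. For single members every split of the mice was enumerated in an exact permutation test. The precision comes from the spread between mice, since a Cq holds no count of molecules. Stability followed the published geNorm and NormFinder formulas. Python 3.11.15 with pandas 2.3.3 was used, and the code was tested on simulated data.

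Members called by limma, let-7a, let-7b, let-7d, let-7f and let-7i were described mouse by mouse. Members, lists and rules were chosen with earlier results of these data known. The alternatives were other scalings, Cq limits, treatments of missing values, tests, the haemolysis marker as a covariate, a haemolysis limit of 7 and leaving out each mouse.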

Additional observations from a re-analysis of the deposited data

Results flagged for a closer look

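Of 50 groups of 4 to 10 mice examined for a single mouse far from the others, over the 17 assays and the 8 arm ratios, 3 were picked out, and chance alone picks about 1 in 20. Control replicate 1 was low for let-7b, at 5.08 against 5.98 in the next control mouse, and for let-7g, at 5.22 against 6.81. OS replicate 10 was high for let-7f over let-7f-2*, at 0.73 against -1.59 in the next OS mouse.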

How the results depend on the processing

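Let-7 assays called lower numbered 2 in the reported fit and 1 to 3 across 16 alternatives, and 0 were called higher in any of them. The count was 1 on unscaled Cq, with each panel on its own mean, at a Cq limit of 35 (where let-7f could not be tested), with only miRNAs measured in every mouse (again without let-7f), by the methods' test, with the haemolysis covariate and without the mice over a haemolysis marker of 7. Without single mice it ranged from 1 (without OS replicate 19, or control replicate 3, 4, 13 or 14) to 4 (without OS replicate 15 or control replicate 1). Of the arm ratios, 2 were called, 1 at a Cq limit of 40, and 1 to 5 without single mice, with 5 without control replicate 1 and 4 without OS replicate 15. Over all miRNAs, 25 were called lower and 24 higher, against 17 and 4 on unscaled Cq, 14 and 10 by the methods' test, 6 and 11 with the haemolysis covariate, 10 and 10 without the mice over 7, 11 and 22 scaled to the reference miRNAs and 14 and 28 scaled to the median. On unscaled Cq the median of all miRNAs was -0.45, and scaled to the median of those in every mouse it was 0.14.

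Differences near 0 changed sign. Let-7b, at 0.01, was at -0.045 scaled to the reference miRNAs, -0.43 on unscaled Cq, -0.019 scaled without the let-7 assays, -0.040 at a Cq limit of 35 and -0.024 with the haemolysis covariate, and from -0.16 to 0.071 without single mice. Let-7b*, at -0.07, was at 0.075 scaled to the median, and from -0.29 to 0.13 without single mice. Let-7d*, at 0.08, was at -0.36 on unscaled Cq, -0.36 under centring by panel, -0.36 with the haemolysis covariate and -0.17 without the mice over 7, and from -0.11 to 0.28 without single mice. Let-7f-1*, at 0.12, was at -0.32 on unscaled Cq, -0.32 under centring by panel, -0.033 with the haemolysis covariate and -0.00015 without the mice over 7. Let-7i*, at -0.60, was at 0.12 with the haemolysis covariate, and rno-let-7f-1*, at 0.28, was at -0.16 both on unscaled Cq and under centring by panel. None of these passed the threshold in any setting, and the cause was not tested. No paired analysis by litter was possible, because the labels do not say which control mice were littermates of which OS mice. The number of mice limits the precision, as the confidence intervals in the report show.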
